A study of Homo sapiens with 9 samples.

Results

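The subject is the set of expression changes that 2 siRNA preparations against ENAH had in common in H2030, a human cell line grown from a non-small cell lung cancer. A gene was placed in the set where all 6 knockdown libraries lay on one side of all 3 control libraries. Of 13498 genes tested, 3644 met this rule (27%), 1751 of them above control (13%) and 1893 below it (14%). The control group received the ON-TARGETplus non-targeting siRNA pool. The siMENA11a group received a custom mix of siRNAs, each matching 21 nucleotides of exon 11a of ENAH, and the siMENA group received the siGENOME SMARTpool against ENAH as a whole. Each preparation was used at 20 nmol/L with Lipofectamine RNAiMAX, so every library comes from transfected cells. Each group holds 3 libraries from 1 siRNA preparation, and the labels do not tie them to separate cultures. The p-values therefore rest on variation among these 9 libraries, part or all of which may be technical. Control and siMENA pools come from different reagent lines, and the effect of a preparation and the effect of its target cannot be told apart. Both knockdowns were set against the same 3 control libraries, so agreement between the 2 comparisons is partly built in, and only siMENA11a against siMENA takes its difference from no control library.

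ENAH encodes hMENA, a member of the Ena/VASP family, which binds the growing end of actin filaments, recruits profilin-bound actin and slows filament capping. Epithelial cells splice in exon 11a and make hMENA11a, while mesenchymal-like tumour cells tend to make isoforms without it. Actin assembly is tied to transcription, since free actin monomers hold back coactivators of the serum response factor SRF, and tension on the cytoskeleton acts on YAP and its TEAD partners.

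Values are TPM divided by a library factor (median of ratios), called scaled TPM. Fold changes are differences of log2(scaled TPM + 0.5) with their standard error, and p-values are from limma with Benjamini-Hochberg adjustment over all tested genes, with the threshold at 0.05. The added 0.5 makes the fold changes of low genes too small. Per library, 12258 to 12520 genes reached 1 TPM. The RNA of the signal recognition particle, RN7SL, took 39.7% to 41.1% of TPM in control, 44.3% to 45.2% with siMENA11a and 39.6% to 40.6% with siMENA. TPM keeps no sequencing depth, so no counting error can be given. The line's keratin markers KRT8 (79.4 to 104 deposited TPM) and KRT18 were present in all 9 libraries, while KRT19 (at most 0.05) and CDH1 (at most 0.14), the gene of E-cadherin, were near 0. Of 12 leukocyte markers, 11 stayed under 0.5 TPM in every library and 5 were listed at 0 throughout.

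ENAH itself was not among the shared genes. Its control libraries held 43.6, 43.2 and 44.7 scaled TPM, the siMENA11a libraries 46.7, 47.5 and 48.7, and the siMENA libraries 6.89, 7.3 and 7.48. ENAH fell with siMENA (log2 fold change -2.52 ± 0.038, limma adjusted p = 4.98e-10). Under the scaling used here it was slightly higher with siMENA11a (0.12 ± 0.038, limma adjusted p = 0.0247). Library factors were 0.886 to 0.973 with siMENA11a and 0.995 to 1.04 in control, so a rise of this size depends on the scaling. The gene total sums all isoforms, so it does not check whether the exon 11a form was reduced.

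With the 6 knockdown libraries averaged against control, limma called 6745 of 13498 genes (50%), 3236 higher (24%) and 3509 lower (26%). Each knockdown alone called about as many: siMENA11a 55.6% of genes (27.9% higher, 27.7% lower) and siMENA 49.4% (23.7% higher, 25.8% lower). The 2 knockdowns also differed from each other in 58.7% of genes (29.5% higher with siMENA11a, 29.2% lower). Both called 1395 of the 13498 genes in opposite directions, the background for such counts in the lists below. Shared changes were mostly small. The median log2 fold change of the 1751 genes above control was 0.33, that of the 1893 genes below control -0.37, and that of all tested genes 0.00. In both knockdowns, 118 of the higher genes and 147 of the lower genes changed by at least 1.5-fold. At least 2-fold in both, the counts were 17 higher (0.126% of tested genes) and 11 lower (0.0815%).

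**Figure D1:**
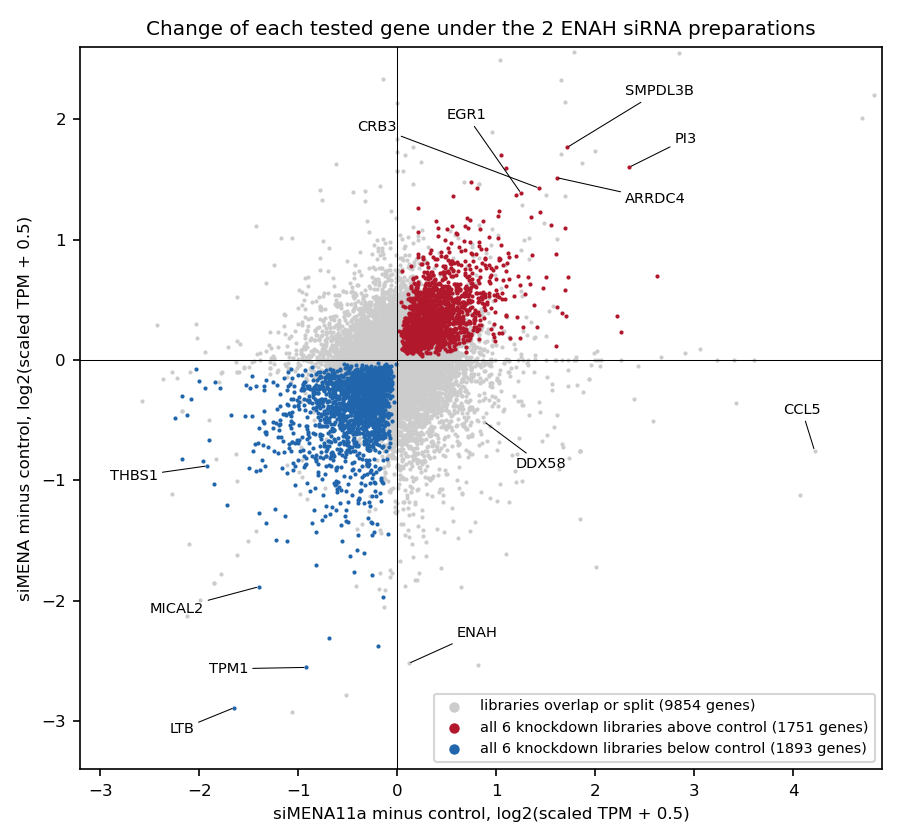
Log2 fold change of each tested gene with siMENA11a (x axis) and siMENA (y axis), both against the same 3 control libraries. Red and blue points are the 1751 and 1893 genes with all 6 knockdown libraries above or below control, grey points the other 9854. ENAH, DDX58 and CCL5 lie off the shared diagonal, and 17 genes fall outside the axes.

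Scaling set how the shared genes split by direction. Higher genes made up 48.1% of the set with the scaling used here, 43.3% with TPM as deposited, 54% after quantile normalisation and 73.7% with TPM rescaled without small and structured RNAs, which took the median of all tested genes from 0.00384 to 0.105 on the log2 scale. The average fold changes of the genes named below kept their direction under each of these scalings. Differences between the 2 knockdowns were not recomputed gene by gene. With TPM as deposited, the median of all tested genes was -0.105 with siMENA11a and 0.0862 with siMENA, against 0.0147 and 0.00756 here. Small differences between the knockdowns therefore depend on the scaling. Counts of genes by the preparation with the larger change can depend on it too. For gene lists, counts are given under the other scalings where they moved by over 1.5 times, and medians where they changed sign. The standard error of an average covers the spread within groups. With the 6 knockdown libraries taken as 1 group, differences between the preparations count as spread, and a call lost in that way is given beside the average. At the edge of the rule, KIF4A and EIF5A lay just inside, with log2 fold changes of -0.40 and -0.14, and SYS1 and CDCA7L just outside, with -0.22 and 0.22. With the knockdowns as 1 group, KIF4A (limma adjusted p = 0.178), EIF5A (0.131) and CDCA7L (0.0865) lost their calls.

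The first genes named were chosen among called genes by the smaller of their 2 fold changes, 14 in each direction, so their size and calls are a description. Of these 28, 21 had a mean under 10 scaled TPM. The siMENA11a and siMENA libraries differed for 15 of the 28, with 9 changed more by siMENA11a and 6 more by siMENA. Up to 4 members of each list were named in the same way, among called genes on one side of control. Their sizes and p-values against control are a description too. The lists and their members were chosen with earlier results of these data known, so list shares and medians are a description as well.

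Among the genes that rose were inhibitors of secreted proteases. PI3 encodes elafin, an inhibitor of neutrophil elastase, and had the largest average rise of the 14: its libraries held 2.06, 1.54 and 2.59 scaled TPM in control, 12.7, 13.4 and 11.1 with siMENA11a and 8.55, 5.87 and 7.32 with siMENA. No knockdown library came near the controls, and the siMENA11a libraries were all above the siMENA ones. The log2 fold change was 1.97 ± 0.14 (limma adjusted p = 5.29e-06), and it was larger with siMENA11a by 0.74 (limma adjusted p = 0.00312). SLPI, a related inhibitor of elastase in airway secretions, went from 9.75, 12 and 11.2 in control to 17.6, 16.7 and 19.5 with siMENA11a and 25.8, 24.6 and 22.8 with siMENA, so here siMENA had the higher level. TFPI2, an inhibitor deposited in the matrix, rose by 0.58 ± 0.036 from a high level of 163 ± 6.67 scaled TPM (SD, n = 3). SERPING1, the inhibitor of complement C1, rose by 0.58 ± 0.17 at about 1 scaled TPM, a call that was lost without control replicate 1 (limma adjusted p = 0.0529). These were the 4 members of 14 tested that lay above control (28.6%), while 1 lay below (7.1%). The list as a whole had a median of 0.04, with 6 members called higher and 3 lower.

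The alpha-arrestins TXNIP and ARRDC4 rose with both preparations. They are the best known targets of MondoA, a sugar-sensing factor that binds paired E-boxes together with MLX, and TXNIP in turn limits thioredoxin activity and glucose uptake. TXNIP read 1.96, 1.94 and 1.59 scaled TPM in control, 5.55, 7.15 and 7.19 with siMENA11a and 3.75, 3.7 and 3.92 with siMENA. Its 3 groups were fully separated, and the rise was larger with siMENA11a by 0.72 (limma adjusted p = 0.000238). ARRDC4 read 2.96, 2.95 and 2.13 in control, 8.56, 8.62 and 10.4 with siMENA11a and 8.44, 9.09 and 8.03 with siMENA, and here the knockdowns overlapped. Its log2 fold change was 1.56 ± 0.1 (limma adjusted p = 2.75e-06), and the difference between knockdowns was 0.10 (95% interval -0.16 to 0.36). A further arrestin, ARRDC2, rose by 0.55 ± 0.052, while MLX, MondoA's partner, fell (-0.43 ± 0.042). Of 14 tested genes of this list, 4 lay above control (28.6%) and 2 below (14.3%, or 1 to 2 members under the other scalings), with a median of 0.25.

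The promoters of these arrestins are shown because each holds an E-box match, in the paired form in TXNIP and as a single CACGTG in ARRDC4. They come from RefSeq (GRCh38.p14), in the window from 250 bases before to 50 after the transcription start, with the E-box letters in capitals.
TXNIP, chr1:145996636-145996682, minus strand: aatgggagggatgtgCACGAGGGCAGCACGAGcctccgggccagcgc
ARRDC4, chr15:97960478-97960513, plus strand: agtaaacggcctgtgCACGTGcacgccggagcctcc
The TXNIP match is the paired form, CACGNG followed by any 5 bases and then CNCGNG, 88 bases before the start, found on either strand in 0.53% of 27195 promoters. In ARRDC4 the match is a single CACGTG, 210 bases before the start, a sequence held by 7.45% of promoters. Among the 4 list members above control, 1 held each form, and MLX, below control, also held a CACGTG. Of the 6 members on neither side with a promoter, 0 held either form. A match describes the letters in this window and not a bound site.

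Immediate early genes are those that growth factor signalling switches on within minutes. Of 29 tested, 13 lay above control (44.8%, against 13% of all genes) and 2 below, and limma called 20 higher and 3 lower. The list median was 0.37, and it stayed between 0.34 and 0.47 under the other scalings, with 9 to 13 members above control. EGR1, a zinc-finger factor and the leading member, read 2.84, 2.6 and 3.32 scaled TPM in control, 6.14, 8.31 and 8.61 with siMENA11a and 9.75, 7.72 and 7.91 with siMENA. The lowest knockdown library was still well above the highest control, and the 2 knockdowns overlapped. EGR1 rose by 1.32 ± 0.12 (limma adjusted p = 1.89e-05), with a difference between knockdowns of -0.14 (95% interval -0.44 to 0.17). FOS, an AP-1 subunit, rose by 0.63 ± 0.11. DUSP6, a phosphatase that ERK signalling induces and that removes phosphate from ERK, read 4.55, 3.7 and 4.3 in control, 5.59, 6.51 and 6 with siMENA11a and 8.82, 8.48 and 9.13 with siMENA. It rose more with siMENA, by -0.51 as siMENA11a minus siMENA (limma adjusted p = 0.000381). KLF4, an epithelial zinc-finger factor, rose by 0.50 ± 0.062. Of the 13 members above control, 7 were higher with siMENA than with siMENA11a, 3 the other way, and 3 did not pass that test. RGS2, which shortens G protein signals and is outside this list, read 28.4, 28.7 and 26.9 in control, 57.7, 60.9 and 54.4 with siMENA11a and 66.3, 71.3 and 62.4 with siMENA, and rose by 1.13 ± 0.049.

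SRF targets moved both ways. SRF binds the CArG box and drives fast-acting genes such as EGR1 together with ternary complex factors, and cytoskeletal genes such as the actins together with actin-sensing coactivators. Of 24 tested targets, 7 lay above control (29.2%) and 10 below (41.7%, or 6 to 8 members under the other scalings). Members above control included EGR1 and FOS, and members below it ACTB, ACTG1 and TPM1. The list median of -0.09 reached 0 with TPM rescaled without small and structured RNAs. Promoters of 1 member from each side are printed with their CArG boxes in capitals, since the same element stands in genes that moved in opposite directions.
EGR1, chr5:138465359-138465420, plus strand: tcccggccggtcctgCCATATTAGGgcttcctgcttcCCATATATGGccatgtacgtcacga
ACTG1, chr17:81512869-81512908, minus strand: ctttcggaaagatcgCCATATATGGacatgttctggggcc
The 2 boxes of EGR1 begin 105 and 83 bases before the start and that of ACTG1 94 bases before it. A CArG box was found in 1.29% of all promoters, in 2 of the 7 targets above control and in 4 of the 10 below. It also stood in 1 of the 5 targets on neither side that had a promoter. The list was made of SRF targets, so these shares do not bear on their change. The ACTG1 box and the second EGR1 box are the same letters.

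Epithelial junction and keratin genes showed a few clear rises and no common direction. CRB3 encodes a Crumbs protein that sets up the apical side of epithelial cells. It read 1.26, 0.615 and 0.711 scaled TPM in control, 3.61, 3.13 and 2.62 with siMENA11a and 3.65, 3.3 and 2.43 with siMENA, a low level throughout. The rise was 1.43 ± 0.17 (limma adjusted p = 9.89e-05), and the difference between knockdowns was 0.00 (95% interval -0.43 to 0.44). EPCAM, an epithelial adhesion molecule, read 1.59, 1.59 and 1.19 in control, 2.76, 3.32 and 2.61 with siMENA11a and 3.07, 3.38 and 2.84 with siMENA, and rose by 0.84 ± 0.1. CLDN2, a tight junction claudin, rose by 0.94 ± 0.13, more with siMENA (difference -0.47, limma adjusted p = 0.0228). KRT81, a hair-type keratin, fell: 6.49, 6.06 and 6.46 in control, 2.06, 1.2 and 1.56 with siMENA11a and 2.79, 2.17 and 2.43 with siMENA. Of 27 tested members, 5 lay above control (18.5%; 5 to 9 under the other scalings) and 4 below (14.8%; 2 to 3), shares near those of all genes. The median was 0.01 and became -0.02 with TPM as deposited.

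Other leading genes that rose came from no single pathway. SMPDL3B, a membrane-anchored relative of acid sphingomyelinase, stood first in the ranking. Its control libraries held 0.633, 0.279 and 0.381 scaled TPM, the siMENA11a libraries 2.57, 2.35 and 2.65 and the siMENA libraries 2.39, 2.78 and 2.73. It rose by 1.74 ± 0.12 (limma adjusted p = 4.2e-06), and the 2 knockdowns overlapped. SCEL, a precursor of the cornified envelope of squamous epithelia, rose by 1.27 ± 0.064. SCG5, a neuroendocrine secretory protein, rose by 1.40 ± 0.13 and more with siMENA11a (difference 0.60, limma adjusted p = 0.00616). CHPF, which extends chondroitin sulfate chains, had little spread: 23.6, 24.1 and 22.4 in control, 48, 48.8 and 50.3 with siMENA11a and 46.1, 44.7 and 46.1 with siMENA. Its log2 fold change was 1.00 ± 0.031 (limma adjusted p = 9.9e-08). SYNE4, a nuclear envelope protein that links the nucleus to kinesin, rose by 1.01 ± 0.14. TRAPPC6A, a vesicle tethering subunit, ZNF783, a zinc-finger gene, and SLC16A4, a member of the monocarboxylate transporter family, rose by 1.02, 1.11 and 1.03.

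**Figure D2:**
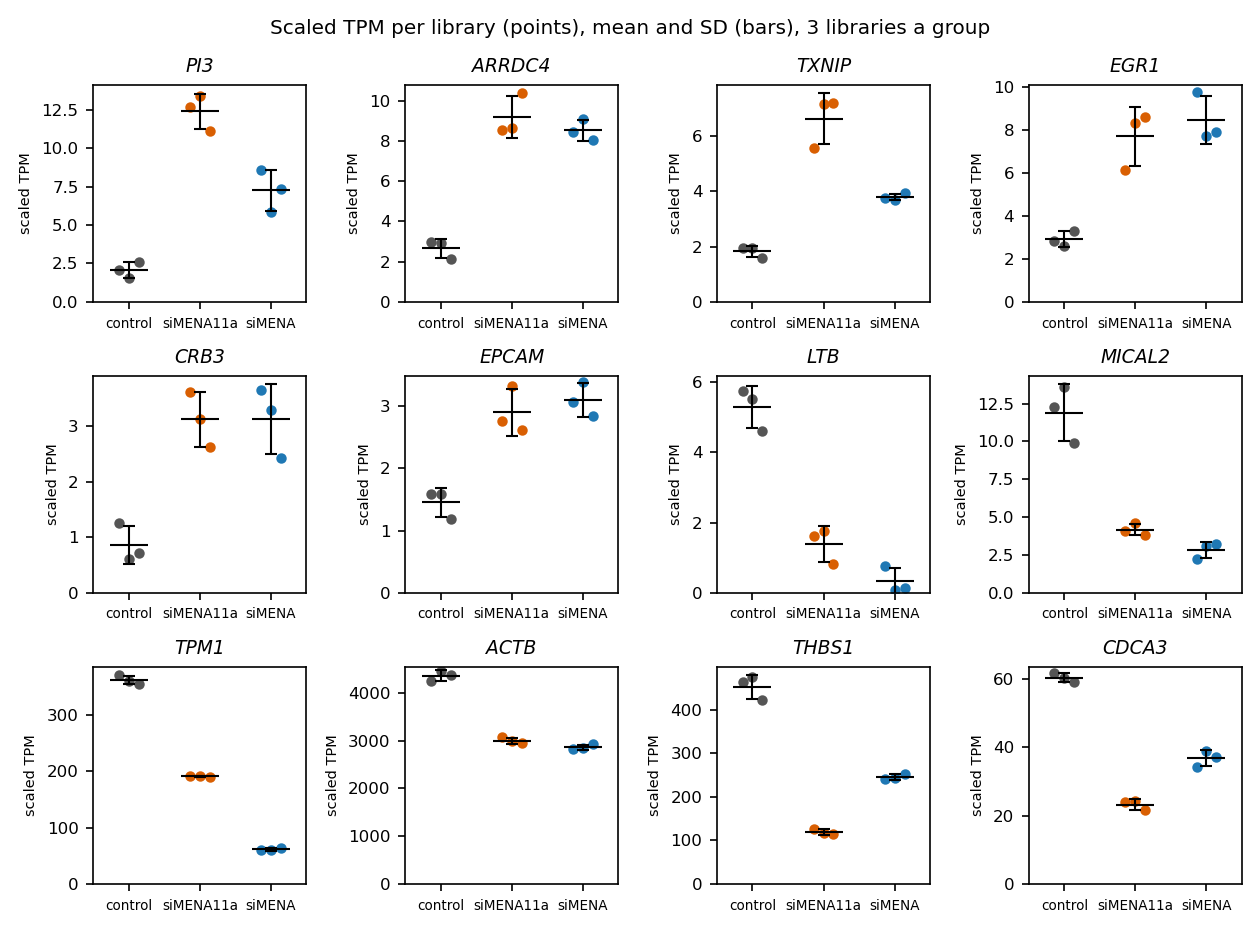
Scaled TPM in each library for 12 genes, by group, on linear axes that start at 0. Points are libraries, and bars give the mean and SD of 3. In every panel the 6 knockdown libraries lie on one side of the 3 control libraries: the first 6 genes above and the last 6 below.

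ENAH acts on actin filaments, and the genes that load and contract them were read next. Of 26 tested tropomyosin and actomyosin genes, 13 lay below control (50%, against 14% of all genes), 3 above (3 to 5 under the other scalings) and 10 on neither side. Called lower were 16 with siMENA11a and 18 with siMENA, and called higher 5 and 3. For both together the median was -0.35 (-0.37 to -0.25 under the other scalings). TPM1, a tropomyosin that coats and stiffens actin filaments, read 371, 361 and 355 scaled TPM in control, 192, 191 and 189.6 with siMENA11a and 60.1, 59.8 and 63.9 with siMENA. The 3 groups formed separate steps with almost no spread. TPM1 fell by 1.74 ± 0.028 on the log2 scale (limma adjusted p = 2.2e-09), and siMENA11a libraries stayed above siMENA ones by 1.63 (limma adjusted p = 1.68e-09). MYLK, the myosin light chain kinase that triggers contraction, fell by 0.76 ± 0.061, with a difference between knockdowns of 0.07 (95% interval -0.08 to 0.23). RHOC, a GTPase upstream of contraction, fell by 0.50 ± 0.031. PPP1R14C, an inhibitor of protein phosphatase 1, read 5.56, 5.46 and 4.28 in control, 0.598, 0.836 and 0.925 with siMENA11a and 4.19, 3.68 and 2.9 with siMENA. Its fall was mostly in siMENA11a, with a difference of -1.66 (limma adjusted p = 9.58e-06).

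Among 51 tested actin regulators, 21 lay below control (41.2%), 5 above (9.8%; 1 to 10 under the other scalings) and 25 on neither side. Calls by preparation differed: siMENA11a called 22 lower and 15 higher with a median of -0.02, and siMENA 30 lower and 5 higher with a median of -0.21. The 6 genes called in opposite directions were close to the share of all tested genes (1395 of 13498). The median of both together was -0.15, and it shrank to -0.05 with TPM rescaled without small and structured RNAs and under quantile normalisation. MICAL2, an enzyme that oxidises actin and so takes filaments apart, read 12.3, 13.6 and 9.88 scaled TPM in control, 4.07, 4.6 and 3.85 with siMENA11a and 2.26, 3.09 and 3.23 with siMENA. It fell by 1.64 ± 0.12 (limma adjusted p = 5.91e-06). CAPZA1, a subunit of the capping protein that Ena/VASP proteins oppose, read 101, 98 and 95 in control, 36.9, 38.2 and 35 with siMENA11a and 58.5, 62.1 and 60.8 with siMENA. The siMENA11a libraries were lowest, and the difference from siMENA was -0.71 (limma adjusted p = 5.29e-07). CFL2, a filament-severing cofilin, fell by 0.64 ± 0.047, with a difference between knockdowns of -0.09 (95% interval -0.21 to 0.03). The cytoplasmic actins were among the most abundant messages here. ACTB read 4245, 4457 and 4383 in control, 3069, 2988 and 2947 with siMENA11a and 2816, 2855 and 2922 with siMENA. ACTG1, whose promoter is printed above, read 2517, 2629 and 2471 in control, 1687, 1621 and 1588 with siMENA11a and 1688, 1682 and 1728 with siMENA. They fell by 0.57 ± 0.039 and 0.61 ± 0.037, and for neither did the difference between knockdowns pass the test (95% intervals -0.03 to 0.17 and -0.16 to 0.04). Actins, like ribosomal proteins, histones and some glycolytic enzymes, have near-identical copies or pseudogenes between which reads may have been split. AFAP1L1, a binder of actin filaments, and DPYSL2, which promotes microtubule assembly, are outside the list and fell by 1.17 and 1.04. DPYSL2 read 73.5, 73.5 and 73 in control, 37.8, 36.7 and 32.8 with siMENA11a and 32.1, 36.2 and 37.9 with siMENA, so both preparations left about the same level (difference 0.01, 95% interval -0.13 to 0.16).

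Of 15 tested genes of ENAH's family and binding partners, 9 lay below control (60%; 5 to 7 under the other scalings) and 0 above (0 to 2), and 4 were called in opposite directions. The 15 include ENAH itself, the siRNA target, which had the lowest average (-1.2) and is among those called in opposite directions. The median was -0.24, and -0.12 under quantile normalisation. RAPH1 encodes lamellipodin, which brings Ena/VASP proteins to the leading edge. It read 16, 15.4 and 15.1 scaled TPM in control, 11.6, 11.8 and 11.6 with siMENA11a and 7.04, 6.24 and 6.7 with siMENA, a stepwise order like that of TPM1. The fall was 0.78 ± 0.042, and the difference between knockdowns 0.77 (limma adjusted p = 1.07e-06). LPP, a zyxin-like focal adhesion protein, and PXN, paxillin, fell by 0.37 ± 0.044 and 0.26 ± 0.029. PFN1, the profilin that feeds actin to Ena/VASP proteins, fell by 0.24 ± 0.031, and this call was lost under quantile normalisation (limma adjusted p = 0.0786).

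YAP and TEAD respond to cell shape and tension. Of 25 tested YAP and TEAD targets, 13 lay below control (52%) and 3 above (12%), with a median of -0.31 that stayed between -0.34 and -0.21 under the other scalings. CYR61, a matrix protein and standard YAP readout, read 324, 332 and 324 scaled TPM in control, 208, 206 and 210.3 with siMENA11a and 191, 185 and 188 with siMENA. It fell by 0.72 ± 0.023 (limma adjusted p = 9.9e-08), slightly more with siMENA under the scaling used here. NT5E, the ectoenzyme CD73 that makes adenosine, read 74.4, 75.6 and 66.2 in control, 18.8, 18.5 and 17.1 with siMENA11a and 36.5, 41.5 and 42.6 with siMENA. Here siMENA11a gave the larger fall, by -1.13 (limma adjusted p = 8.77e-07). F3, tissue factor, fell by 0.74 ± 0.11, and TGFB2, a TGF-β ligand, by 0.93 ± 0.034 with the larger fall under siMENA (difference 0.83, limma adjusted p = 1.94e-07).

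For integrins and adhesion receptors, 9 of 26 tested lay below control (34.6%) and 2 above (7.7%), and 15 on neither side. In this list siMENA11a called 12 lower and 10 higher (median -0.07), siMENA 20 lower and 2 higher (median -0.37), and 8 genes were called in opposite directions. ITGB3, the β subunit of the vitronectin receptor, read 9.61, 9.67 and 10.3 scaled TPM in control, 5.71, 5.5 and 4.95 with siMENA11a and 2.87, 3.41 and 3.8 with siMENA. CD44, the hyaluronan receptor, read 85.3, 87.4 and 77.9 in control, 60.1, 57.9 and 58.5 with siMENA11a and 29.4, 34.4 and 34.1 with siMENA. Both fell further with siMENA than with siMENA11a, by 0.61 and 0.84. ITGA3, a laminin receptor subunit, fell by 0.48 ± 0.028 with a difference between knockdowns of -0.04 (95% interval -0.11 to 0.03). ITGA2, a collagen receptor subunit, went the other way and rose by 0.67 ± 0.054.

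Mesenchymal and matrix genes had 11 of 29 tested members below control (37.9%), 0 above and 18 on neither side, and 4 were called in opposite directions. THBS1, thrombospondin 1, read 464, 475 and 422 scaled TPM in control, 126, 116 and 115 with siMENA11a and 240.0, 244 and 253 with siMENA. It fell by 1.40 ± 0.045 (limma adjusted p = 9.9e-08), with the siMENA11a libraries lowest. PLAU, the urokinase that activates plasminogen, read 13.5, 16.3 and 13.5 in control, 7.62, 5.21 and 6.25 with siMENA11a and 5.41, 5.36 and 5.96 with siMENA. Its fall of 1.21 ± 0.1 was of similar size in both (difference 0.16, 95% interval -0.11 to 0.43). The collagens COL5A1 and COL16A1 fell by 0.79 and 0.81. In the TGF-β list, 11 of 34 tested lay below control (32.4%) and 2 above (5.9%; 1 to 6 under the other scalings). Besides TGFB2, the members below control included the activin subunits INHBB (-0.75 ± 0.04) and INHBA (-0.91 ± 0.074) and the SMAD corepressor SKI (-0.56 ± 0.038). That list's median of -0.06 became 0.04 with TPM rescaled without small and structured RNAs.

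**Figure D3:**
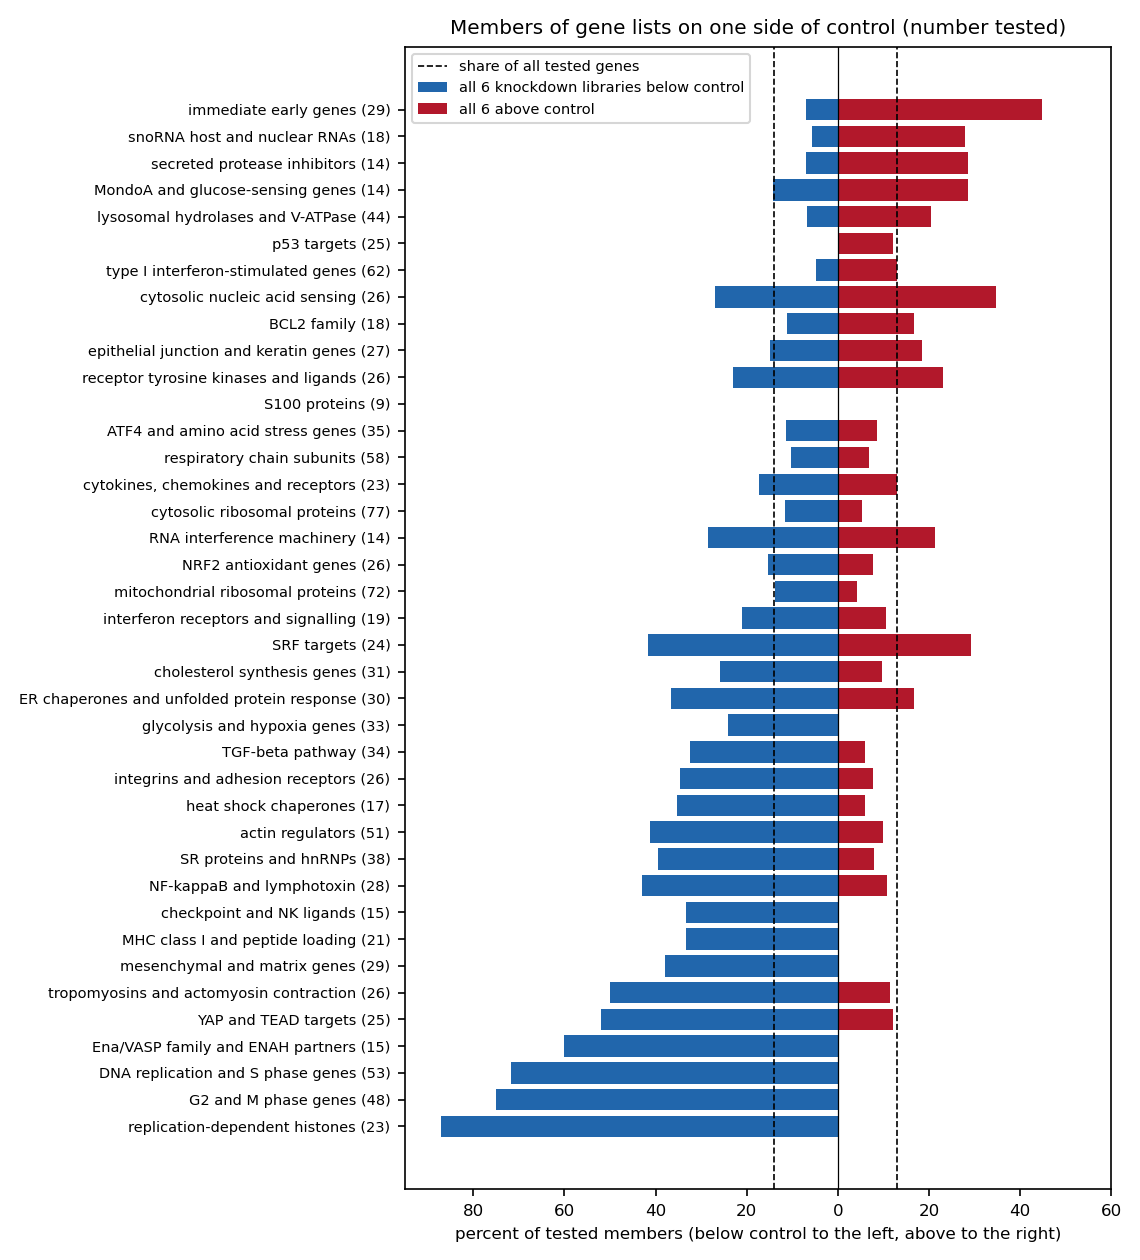
Share of each gene list's tested members with all 6 knockdown libraries below (blue, left) or above (red, right) the 3 controls, with the number tested in brackets. Dashed lines mark the shares of all tested genes, 14% below and 13% above. Histones, G2 and M phase genes and S phase genes reach furthest left and immediate early genes furthest right.

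The NF-κB list held the largest fall among the 14 leading lower genes. LTB encodes lymphotoxin β, the ligand of the receptor that switches on the noncanonical branch of NF-κB. It read 5.75, 5.5 and 4.62 scaled TPM in control, 1.61, 1.75 and 0.812 with siMENA11a and 0.767, 0.0746 and 0.147 with siMENA. The highest knockdown library was under 2 scaled TPM while the lowest control was above 4. LTB fell by 2.27 ± 0.26 (limma adjusted p = 8.35e-05) and more with siMENA, by 1.24 (limma adjusted p = 0.00533). NFKB2, the noncanonical subunit p100, read 63.1, 61.1 and 54.2 in control, 36.8, 37.5 and 37 with siMENA11a and 43.6, 42.3 and 44.1 with siMENA. It fell by 0.56 ± 0.045, here more with siMENA11a (difference -0.22, limma adjusted p = 0.00456). RELB, the partner of p100, was not shared. It read 17.7, 18.2 and 16.5 in control, 8.25, 7.7 and 8.19 with siMENA11a and 17.2, 15.2 and 13.8 with siMENA, so that the siMENA libraries overlapped the controls. Feedback inhibitors fell with both preparations: TNFAIP3 (A20) by 0.61 ± 0.081 and TNIP1 by 0.57 ± 0.047. TRAF2, an adaptor below TNF receptors, fell by 0.52 ± 0.053. Of 28 tested members, 12 lay below control (42.9%) and 3 above (10.7%; 2 to 5 under the other scalings), with a median of -0.30 (-0.32 to -0.20 under the other scalings).

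Among cytokines and chemokines, 4 of 23 tested lay below control (17.4%; 2 to 6 under the other scalings) and 3 above (13%). IL8, the neutrophil chemokine, read 82.5, 82.8 and 68.7 scaled TPM in control, 47.4, 49 and 54.8 with siMENA11a and 52.6, 47.4 and 45.8 with siMENA, and fell by 0.65 ± 0.073. IL6 fell by 0.40 ± 0.054, more with siMENA11a (difference -0.32, limma adjusted p = 0.00143). IL18, an inflammasome cytokine, rose by 0.64 ± 0.054, most of it with siMENA11a (difference 0.84), a call lost with the knockdowns as 1 group (limma adjusted p = 0.11). CCL2, the monocyte chemokine, was higher by 0.23 ± 0.066 (limma adjusted p = 0.0168), a call lost without control replicate 3 (limma adjusted p = 0.0766) and with the knockdowns as 1 group (0.0628).

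Most tested cell cycle genes lay below control with both preparations. Of 48 tested G2 and M phase genes, 36 lay below control (75%, against 14% of all genes), 0 above (at most 1 under the other scalings), and limma called 45 lower. The median was -0.41 for both knockdowns together, -0.51 with siMENA11a and -0.22 with siMENA. Under the other scalings the median stayed between -0.43 and -0.31, and 25 to 29 members lay below control. CDCA3, which helps to trigger entry into mitosis, read 61.6, 60.3 and 59.1 scaled TPM in control, 23.9, 24.3 and 21.5 with siMENA11a and 34.3, 39 and 37.2 with siMENA. It fell by 1.03 ± 0.049 (limma adjusted p = 6.43e-07), further with siMENA11a by -0.65. TOP2A, the topoisomerase that untangles sister chromatids, read 209, 200.1 and 196 in control, 148, 142 and 139 with siMENA11a and 120.0, 130.0 and 126 with siMENA. In contrast to CDCA3 it fell further with siMENA under the scaling used here (difference 0.19, limma adjusted p = 0.00304). Library factors were 0.886 to 0.973 with siMENA11a and 1.06 to 1.09 with siMENA, so a difference of this size depends on the scaling. The centrosome kinase NEK2 and the mitotic phosphatase CDC25C fell by 0.83 ± 0.045 and 0.76 ± 0.069. Of the 36 members below control, 26 were lower with siMENA11a than with siMENA, 4 were lower with siMENA and 6 did not pass that test. In bulk RNA, fewer cells in a phase and less RNA per cell cannot be told apart.

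Late cell cycle promoters are known for CCAAT boxes and for the cell cycle homology region (CHR, TTTGAA or TTCGAA), which the DREAM and MuvB complexes read. Promoters of 2 shared members are printed, with matches on either strand in capitals.
CDCA3, chr12:6851269-6851338, minus strand: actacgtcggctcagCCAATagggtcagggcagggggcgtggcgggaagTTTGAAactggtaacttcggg
TOP2A, chr17:40417930-40418146, minus strand: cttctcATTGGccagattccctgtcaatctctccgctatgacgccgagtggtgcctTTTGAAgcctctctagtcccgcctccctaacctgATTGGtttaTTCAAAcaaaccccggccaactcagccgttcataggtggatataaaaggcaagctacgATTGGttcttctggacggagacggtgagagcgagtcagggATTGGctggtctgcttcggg
RefSeq promoters were found for 31 of the 36 G2 and M phase members below control. A CHR stood in 24 of the 31 and a CCAAT in 28, against 16.6% and 35.7% of all promoters. Of the 10 members with a promoter that were not on one side of control, 7 held a CHR and 7 a CCAAT. The list was made of late cell cycle genes, which are known for these elements, so the shares do not bear on their change. In the 34 S phase members below control with a promoter, a CHR stood in 1 and a CCAAT in 22.

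DNA replication and S phase genes followed. Of 53 tested, 38 lay below control (71.7%) and 0 above (at most 1 under the other scalings), with 47 called lower and 2 higher. Their median was -0.38, -0.47 with siMENA11a and -0.24 with siMENA. RRM2, the ribonucleotide reductase subunit that limits nucleotide supply, read 221, 216 and 219 scaled TPM in control, 144, 139.8 and 135 with siMENA11a and 145, 153 and 144 with siMENA. TYMS, thymidylate synthase, read 125, 137 and 129 in control, 92.7, 89.3 and 88 with siMENA11a and 61.9, 69.1 and 69.3 with siMENA. RRM2 was at similar levels in both knockdowns (difference -0.08, 95% interval -0.16 to 0.00), whereas TYMS was lower with siMENA (difference 0.43, limma adjusted p = 6.22e-05). UHRF1, which maintains DNA methylation, and FEN1, the flap endonuclease, fell by 0.65 ± 0.042 and 0.46 ± 0.052.

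Replication-dependent histones, whose messages rise and decay with S phase, had 20 of 23 tested genes below control (87%) and 0 above. The median was -0.77, -1.03 with siMENA11a and -0.51 with siMENA, and single genes ranged from -1.10 to -0.11. Of the 20, 17 were lower with siMENA11a than with siMENA and 1 the other way. Most of these messages lack a poly(A) tail, and total RNA libraries without poly(A) selection, as here, keep them. Of the p53 targets, 3 of 25 tested lay above control (12%, close to the 13% of all genes, and 2 to 5 members under the other scalings) and 0 below. They included SESN1 (0.60 ± 0.094), a stress-induced brake on mTORC1, and GDF15 (0.64 ± 0.059), a stress cytokine whose rise was larger with siMENA (difference -0.84) and whose call was lost with the knockdowns as 1 group (limma adjusted p = 0.114). The p53 list had 5 members called higher and 5 lower, and its median of 0.01 became -0.01 with TPM as deposited.

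**Figure D4:**
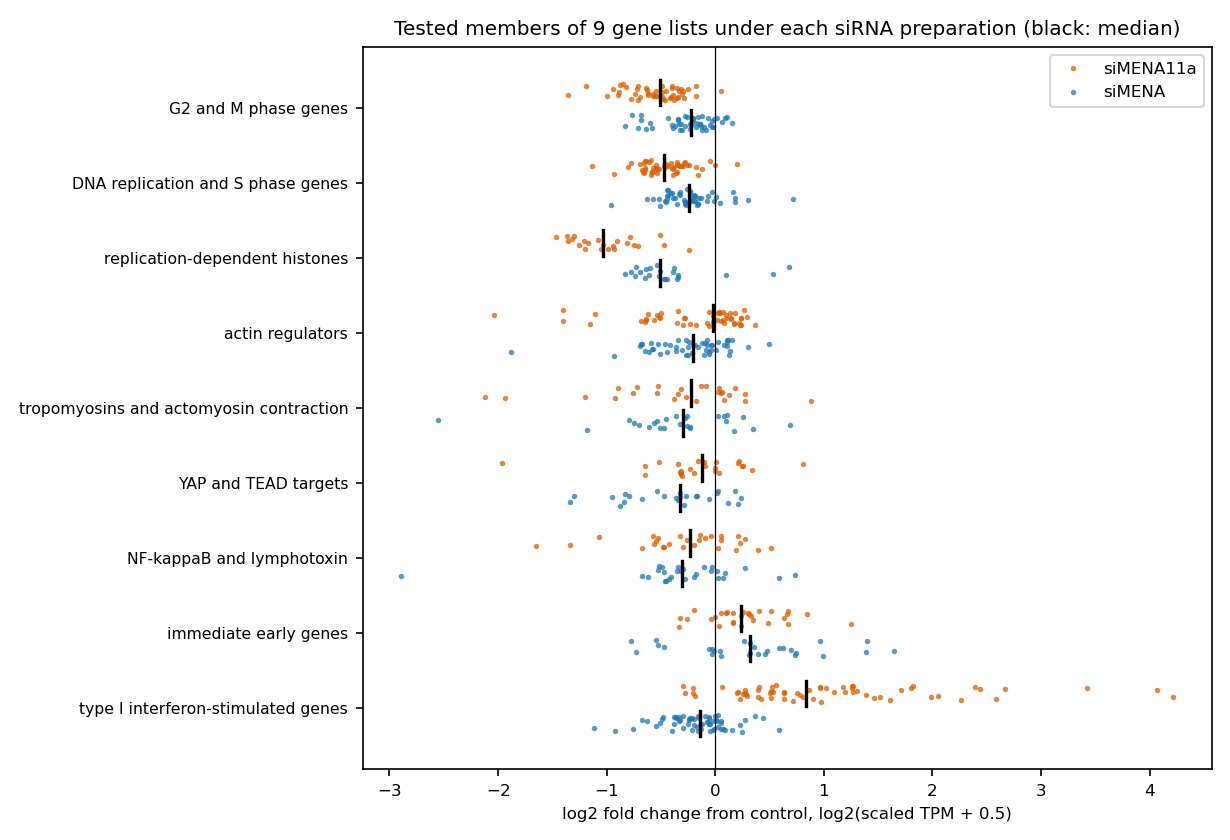
Log2 fold change from control of each tested member of 9 gene lists with siMENA11a (orange) and siMENA (blue), which share the control libraries. Black ticks are medians. The medians of the cell cycle and histone lists lie left of 0 with both preparations and further left with siMENA11a, and the median of the interferon-stimulated genes is 0.84 with siMENA11a and -0.15 with siMENA.

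Other leading lower genes belonged to none of these lists, and some differed between the preparations. HOXC8, a homeobox factor of positional identity, read 17.7, 19.9 and 20.6 scaled TPM in control, 7.85, 7.96 and 8.01 with siMENA11a and 7.92, 7.82 and 7.93 with siMENA. The 6 knockdown libraries lay between 7.82 and 8.01, and the difference between preparations was 0.01 (95% interval -0.12 to 0.13). TMEM123, a mucin-like surface receptor, read 125, 127 and 124 in control, 49, 47 and 45.9 with siMENA11a and 45.7, 54 and 55.9 with siMENA, and fell by 1.33 ± 0.057. KDM1B, a histone demethylase, and PIP4K2A, a phosphoinositide kinase, fell by 1.03 ± 0.052 and 0.98 ± 0.047, KDM1B further with siMENA11a (difference -0.18, limma adjusted p = 0.0298). The orphan receptor GPRC5B and the exocytosis GTPase RAB3B fell by 1.36 and 1.31, further with siMENA (differences 0.27 and 0.40). ITFG3 fell by 1.44 ± 0.054, further with siMENA11a: 25.2, 24.1 and 24 in control, 6.59, 5.94 and 6.7 with siMENA11a and 10.9, 11.5 and 12.7 with siMENA.

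Interferon-stimulated genes were mostly not shared. Of 62 tested, 8 lay above control (12.9%, close to the 13% of all genes, and 8 to 14 members under the other scalings) and 3 below (0 to 3), and 25 were called in opposite directions by the 2 knockdowns. DDX58, the RNA sensor RIG-I, read 8.57, 8.01 and 7.69 scaled TPM in control, 14.6, 15.9 and 15.5 with siMENA11a and 5.13, 5.68 and 5.76 with siMENA, so above control with siMENA11a and below it with siMENA. CCL5, an interferon-induced chemokine, read 0.211, 0.864 and 0.611 in control, 14.3, 18.4 and 24.4 with siMENA11a and 0, 0.149 and 0.193 with siMENA. IFNB1, interferon β, was listed at 0 in 8 of 9 libraries. The shared members mostly rose more with siMENA11a, 7 of 8. IFITM1, a membrane protein that blocks virus entry, read 2.66, 3.47 and 2.09 in control, 7.47, 9.08 and 11.6 with siMENA11a and 3.77, 3.85 and 3.84 with siMENA. Its rise with siMENA alone was not called (0.44 ± 0.17, limma adjusted p = 0.0581). The average rise of IFITM1, 1.02 ± 0.15, lost its call with the knockdowns as 1 group (limma adjusted p = 0.0886). HERC6 and IFIT5 rose by 1.04 ± 0.091 and 0.77 ± 0.071, with 1.35 and 1.00 more in siMENA11a, and lost their calls with the knockdowns as 1 group (limma adjusted p = 0.105 and 0.107). ISG20, an exonuclease of RNA, was the exception: 21.3, 22.5 and 27.7 in control, 33.8, 32.1 and 35.8 with siMENA11a and 37.6, 37 and 33.1 with siMENA (difference -0.08, 95% interval -0.29 to 0.13).

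Parts of the sensing and response machinery did change with both. Of 26 tested nucleic acid sensing genes, 9 lay above control (34.6%) and 7 below (26.9%). TLR3, the endosomal receptor of double-stranded RNA, rose by 0.63 ± 0.085 at 1 to 2 scaled TPM, and NLRX1, a mitochondrial modulator of RNA sensing, by 0.38 ± 0.05. MAVS, the adaptor of RIG-I on mitochondria, read 12.5, 12.4 and 13.3 scaled TPM in control, 10.3, 9.39 and 9.94 with siMENA11a and 6.79, 6.79 and 7.38 with siMENA, and fell by 0.59 ± 0.047. TREX1, a DNA exonuclease, fell by 0.44 ± 0.055. For interferon receptors and their signalling, 4 of 19 tested lay below control (21.1%) and 2 above (10.5%, or 1 to 4 members under the other scalings). The median of 0.00 ranged from -0.02 to 0.10. IFNAR2 and STAT3 fell by 0.65 ± 0.052 and 0.45 ± 0.027 to similar levels in both knockdowns, and IFNGR1 fell mainly with siMENA (difference 0.92). MHC class I and peptide loading genes had 7 of 21 tested below control (33.3%) and 0 above, and under the other scalings 3 to 6 below and 1 to 3 above. Here siMENA11a called 10 higher and 7 lower, siMENA called 0 higher and 16 lower, and 6 were called in opposite directions. Members below control included the immunoproteasome subunit PSMB8, which read 92.8, 96.2 and 88 in control, 36.6, 36.5 and 35.3 with siMENA11a and 62.3, 66.3 and 63.8 with siMENA. That list's median of -0.10 reached 0 with TPM rescaled without small and structured RNAs. Of 15 tested checkpoint and NK cell ligands, 5 lay below control (33.3%; 3 to 5 under the other scalings) and 0 above (0 to 1), among them NT5E and CD24, a surface ligand of macrophage Siglec-10 (-0.54 ± 0.046).

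Growth factor receptors split evenly. Of 26 tested receptor tyrosine kinases and ligands, 6 lay above control (23.1%) and 6 below (23.1%). EGFR read 40.5, 44.5 and 39.8 scaled TPM in control, 29.5, 29.4 and 29.8 with siMENA11a and 29.5, 27.1 and 27.2 with siMENA, and fell by 0.53 ± 0.043 (limma adjusted p = 1.09e-05). ERBB2, its relative, read 19.1, 20.8 and 20.3 in control, 27.3, 27.7 and 29 with siMENA11a and 30.0, 27 and 27.8 with siMENA, and rose by 0.48 ± 0.042 (limma adjusted p = 1.84e-05). For each the knockdowns did not differ beyond their spread (95% intervals -0.03 to 0.19 and -0.12 to 0.10). EPHB2, an ephrin receptor, and ROR1, a WNT5A receptor, fell by 1.29 ± 0.063 and 0.87 ± 0.076, further with siMENA11a. The list median of -0.06 became 0.01 with TPM rescaled without small and structured RNAs.

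Stress programmes were mixed. In the ATF4 list, 3 of 35 tested lay above control (8.6%) and 4 below (11.4%), with 4 to 6 above and 1 to 3 below under the other scalings. Of the 35, 14 were called in opposite directions. CTH, which makes cysteine, rose by 0.93 ± 0.069 and STC2, a secreted glycoprotein, fell by 0.94 ± 0.065. CHAC1, which breaks down glutathione, read 2.66, 2.17 and 2.4 scaled TPM in control, 10.5, 13.7 and 15.5 with siMENA11a and 3.11, 3.19 and 3.44 with siMENA, so its rise was almost all in siMENA11a. Of 30 tested genes of ER chaperones and the unfolded protein response, 11 lay below control (36.7%; 6 to 9 under the other scalings) and 5 above (16.7%; 4 to 9). The sensor ERN1 and its target XBP1 rose by 0.66 ± 0.073 and 0.37 ± 0.043, while the chaperone CALR and SEL1L, of ER-associated degradation, fell by 0.40 ± 0.039 and 0.42 ± 0.056. Heat shock chaperones had 6 of 17 tested below control (35.3%) and 1 above, but 1 to 3 below and 0 to 2 above under the other scalings, and the median of -0.10 reached 0.00 with TPM rescaled without small and structured RNAs. HSPD1 and HSP90AA1 fell by 0.49 ± 0.035 and 0.47 ± 0.032, HSP90AA1 mainly with siMENA11a (difference -0.63), and its call was lost with the knockdowns as 1 group (limma adjusted p = 0.118). NRF2 antioxidant genes had 2 of 26 above (7.7%) and 4 below (15.4%), but 3 to 7 above and 1 to 2 below under the other scalings. HMOX1, heme oxygenase, was lower by 0.41 ± 0.05, and the list's median of -0.01 turned positive after rescaling and quantile normalisation.

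In metabolism, 8 of 33 tested glycolysis and hypoxia genes lay below control (24.2%; 3 to 6 under the other scalings) and 0 above (0 to 1). siMENA11a called 13 higher and 10 lower (median 0.08), siMENA 1 higher and 23 lower (median -0.3), and 9 were called in opposite directions. LDHA, lactate dehydrogenase, read 1067, 1073 and 1158 scaled TPM in control, 829.9, 822 and 794 with siMENA11a and 767, 832 and 829 with siMENA, and fell by 0.44 ± 0.041. ENO1, enolase, fell by 0.43 ± 0.031. Of 31 tested cholesterol synthesis genes, 8 lay below control (25.8%; 3 to 5 under the other scalings) and 3 above (2 to 5). The preparations differed here too: siMENA11a called 5 higher and 23 lower (median -0.39), siMENA 11 higher and 6 lower (median 0.06). Of the 31, 7 were called in opposite directions. INSIG1, the sterol sensor that retains SREBP, fell by 0.70 ± 0.058, and ABCA1, a cholesterol exporter, rose by 0.70 ± 0.071. Lysosomal genes had 9 of 44 tested above control (20.5%; 7 to 15 under the other scalings) and 3 below (1 to 3). Of the 44, 27 were called higher and 5 lower with siMENA11a, 12 higher and 17 lower with siMENA, and 9 in opposite directions. GAA, acid glucosidase, and LIPA, acid lipase, rose by 0.48 ± 0.076 and 0.33 ± 0.035. The protease CTSB read 62.8, 66.3 and 64.8 in control, 16.5, 15.1 and 13.1 with siMENA11a and 48.5, 52.3 and 53.8 with siMENA, and was far lower with siMENA11a (difference -1.76, limma adjusted p = 8.89e-08).

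Because all groups carried siRNA, the RNA interference machinery was also read. Of 14 tested genes, 3 lay above control (21.4%) and 4 below (28.6%, or 1 to 4 members under the other scalings). DICER1, which cuts double-stranded RNA, fell by 0.43 ± 0.064, and the Argonaute AGO4 and its partner TNRC6B rose by 0.51 ± 0.054 and 0.55 ± 0.047. AGO4 rose more with siMENA11a (difference 0.52) and TNRC6B more with siMENA (difference -0.57), and both calls were lost with the knockdowns as 1 group (limma adjusted p = 0.0579 and 0.0584). RAN, the nuclear transport GTPase, read 439, 448 and 435 scaled TPM in control, 386, 376 and 365 with siMENA11a and 216, 215 and 224 with siMENA. SR proteins and hnRNPs, which steer splicing, had 15 of 38 tested below control (39.5%) and 3 above, but 4 to 9 below and 1 to 4 above under the other scalings. HNRNPA3 and NONO fell by 0.63 ± 0.041 and 0.81 ± 0.027, NONO mainly with siMENA and with its call lost when the knockdowns were 1 group (limma adjusted p = 0.111). In the BCL2 family, 3 of 18 lay above control (16.7%) and 2 below (11.1%, or 0 to 2 members under the other scalings). The median of -0.01 became 0.08 with TPM rescaled without small and structured RNAs. BAK1, an executioner of apoptosis, was higher by 0.83 with siMENA11a and 0.25 with siMENA (difference 0.57, limma adjusted p = 1.89e-06), and the call of its average was lost with the knockdowns as 1 group (limma adjusted p = 0.0584).

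Large housekeeping complexes had shares at or under those of all genes with the scaling used here. Of 77 tested cytosolic ribosomal proteins, 4 lay above control (5.2%) and 9 below (11.7%), but 23 to 25 above with rescaled TPM and quantile normalisation and 0 above with TPM as deposited, and 2 below with each of the first 2. Of 72 mitochondrial ribosomal proteins, 3 lay above and 10 below (0 to 7 above and 3 to 7 below under the other scalings), and of 58 respiratory chain subunits 4 above and 6 below (3 to 10 above and 1 to 4 below). The medians of -0.03 for cytosolic ribosomal proteins and for the respiratory chain both became 0.08 with TPM rescaled without small and structured RNAs. Of 18 snoRNA host and nuclear RNAs, 5 lay above control (27.8%) and 1 below, with the host gene GAS5 at 33.1, 35.1 and 34.2 scaled TPM in control, 62.4, 65.3 and 62 with siMENA11a and 51.1, 45.8 and 42.9 with siMENA. Of 9 tested S100 genes, 0 lay on one side of control, and their median of 0.01 became -0.01 with TPM as deposited.

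The shared genes were not changed equally by the 2 preparations. Of the 1751 genes above control, 706 differed between siMENA11a and siMENA (40.3%), 418 with the larger rise under siMENA11a and 288 under siMENA. Of the 1893 genes below control, 1099 differed (58.1%), 635 with the larger fall under siMENA11a and 464 under siMENA. Which preparation had the larger change was not recomputed under the other scalings, and for small differences it can depend on the scaling. Among the 9854 genes on neither side, 62.1% differed. That share is partly built in, since genes moved to opposite sides of control fall there by the rule. The median level was 9.26 scaled TPM for genes above control, 19.4 below and 8.36 on neither side. The 3 shares are therefore not like for like. Named genes at like levels with both preparations included HOXC8 and DPYSL2, and the 95% interval of the difference was -0.09 to 0.12 for LDHA and -0.02 to 0.12 for STAT3.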

How the data were processed

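Per the labels' protocols, DNase-treated total RNA was depleted of ribosomal RNA, made into stranded libraries and sequenced in pairs. The authors deposited TPM, 1 value per gene and library, whose file name points to RSEM, while kallisto and GRCh37 are listed without a role, per the submitters' processing notes. Which aligner was run, and whether counting used strand, is not given in the sources used here. Depth is unknown. TPM were divided by median-of-ratios size factors (0.886 to 1.09, from 12341 genes), and the 13498 of 29972 genes whose mean reached 0.5 entered a limma fit (version 3.58.1, R 4.3.3) of log2(scaled TPM + 0.5) (3 group means, eBayes with trend, Benjamini-Hochberg).

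Named genes are the 14 highest and 14 lowest shared genes by the smaller of the 2 fold changes (mean at least 1, called, no clones, pseudogenes, small RNAs, read-throughs or histones), up to 4 members a list, 7 genes always read, and 4 at the rule's edge. Members and the 44 lists were chosen with earlier results of these data known. Alternatives were 3 scalings, 2 pseudocounts, 2 filters, robust eBayes, a 2-group design, a replicate block and leaving out each library. No pair of libraries was identical.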

Additional observations from a re-analysis of the deposited data

Results flagged for a closer look

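The values here are differences between the 2 knockdowns, siMENA11a minus siMENA on the log2 scale, for named genes where limma called that difference. The control libraries do not enter the difference itself, but they share in the library factors and in the spread behind the calls. These differences were not recomputed under the other scalings, and the direction of small ones can depend on the scaling. A positive value means a higher level with siMENA11a.

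Among genes above control, the rise was larger with siMENA11a for PI3 (0.74), SCG5 (0.60), IL18 (0.84), ITGA2 (0.38) and SLC16A4 (0.34). The same held for IFITM1 (1.18), HERC6 (1.35) and IFIT5 (1.00), and for CHAC1 (1.86), TXNIP (0.72) and BAK1 (0.57). Smaller differences of this kind were seen for AGO4 (0.52), GAS5 (0.44), ABCA1 (0.36) and CHPF (0.10). The rise was larger with siMENA for DUSP6 (-0.51), RGS2 (-0.21), KLF4 (-0.19), SLPI (-0.43) and TFPI2 (-0.20). It was also larger with siMENA for GDF15 (-0.84), MMP10 (-0.66), TNRC6B (-0.57), ARRDC2 (-0.51) and CLDN2 (-0.47).

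Among genes below control, the fall was larger with siMENA for TPM1 (1.63), RAPH1 (0.77), MICAL2 (0.49), RHOC (0.23), LPP (0.18) and PFN1 (0.16). The same order was seen for CD44 (0.84), TGFB2 (0.83), COL5A1 (0.67), ITGB3 (0.61), COL16A1 (0.39) and CYR61 (0.15). So did LTB (1.24), IFNGR1 (0.92), MAVS (0.47), MLX (0.25), TYMS (0.43) and TOP2A (0.19). NONO (1.09), RAN (0.78), STC2 (0.57), HSPD1 (0.40) and RAB3B (0.40) were lower with siMENA too. Values were small for GPRC5B (0.27), ENO1 (0.23), SEL1L (0.23), CALR (0.17) and EIF5A (0.13).

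The fall was larger with siMENA11a for CTSB (-1.76), PPP1R14C (-1.66), EPHB2 (-1.23), NT5E (-1.13) and THBS1 (-1.04). PSMB8 (-0.82), ITFG3 (-0.82), CAPZA1 (-0.71), CDCA3 (-0.65), KIF4A (-0.64) and HSP90AA1 (-0.63) had the same order. So had INSIG1 (-0.59), KRT81 (-0.51), AFAP1L1 (-0.50), INHBA (-0.48), ROR1 (-0.38) and IL6 (-0.32). Small values were found for CDC25C (-0.25), NFKB2 (-0.22), KDM1B (-0.18) and HNRNPA3 (-0.16).

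Of the named genes outside the shared set, CCL5 (4.97), ENAH (2.64), DDX58 (1.39) and CDCA7L (0.19) were higher with siMENA11a, and RELB (-0.89) was lower.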

How the results depend on the processing

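Of 2516 average fold changes against control recomputed for 134 named genes, 2482 kept their direction and call, 34 lost the call and 0 reversed. Differences between the 2 knockdowns were not recomputed gene by gene. Counts moved by over 1.5 times in these cases. With TPM as deposited, siMENA11a called 1965 genes higher and siMENA 2300 lower. With TPM rescaled without small and structured RNAs, the average called 5158 higher and 2321 lower, siMENA called 5283 higher and 2305 lower, and 3062 genes lay above and 1090 below control. Taking the 6 knockdown libraries as 1 group called 1152 higher and 1189 lower and lost 23 of the named genes, AGO4, BAK1, CCL2, CCL5, CDCA7L, CHAC1, CTSB, DDX58, EIF5A, ENAH, GDF15, HERC6, HSP90AA1, IFIT5, IFITM1, IFNGR1, IL18, KIF4A, NONO, PPP1R14C, RAN, RELB and TNRC6B. In that design differences between the knockdowns count as spread. Higher genes made up 48.0% of calls as reported, 41.1% with TPM as deposited and 69.0% after rescaling.

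Leaving out 1 library gave 2707 to 3106 genes called higher and 3055 to 3422 lower, and 1858 to 2225 genes above and 1944 to 2268 below control, most without control replicate 3. DDX58's average lost its call without control replicate 2 (limma adjusted p = 0.052) or 3 (0.0668). Defining a shared gene by a limma call in both knockdowns gave 1403 higher and 1586 lower. With the replicate block, the average called 3077 higher and 3418 lower. Deviations of same-numbered libraries correlated only weakly, between -0.07 and 0.06. The labels do not say whether a number marks a shared culture or batch, and these values cannot settle it. EIF5A lost its call after rescaling (limma adjusted p = 0.273) and quantile normalisation (0.56). TPM carries no depth, which limits what can be said of genes near 1 TPM.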

Other observations

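Some genes that changed by at least 2-fold with both preparations fall outside the rule for named genes and were singled out after their values were seen. MMP10, a stromelysin that degrades matrix, read 0.211, 0.231 and 0.0901 scaled TPM in control, 1.05, 0.88 and 0.761 with siMENA11a and 1.63, 1.72 and 1.74 with siMENA. It rose by 1.37 ± 0.12 (limma adjusted p = 1.51e-05) with a mean under 1 scaled TPM. SAA1, an acute-phase protein, read 1.7, 0.73 and 2.27 in control, 0.339, 0.649 and 0 with siMENA11a and 0, 0.308 and 0.615 with siMENA. Its fall of 1.34 ± 0.35 (limma adjusted p = 0.011) lost its call without control replicate 3 (limma adjusted p = 0.0555).

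The small nucleolar RNAs SNORA10 and SNORA61, which guide pseudouridylation of ribosomal RNA and are processed from introns of host genes, were listed at 0 in all 3 control libraries. SNORA10 read 88.1, 101 and 77.7 scaled TPM with siMENA11a and 40.0, 109.7 and 18.5 with siMENA. SNORA61 read 41.8, 40.0 and 36.9 with siMENA11a and 23.7, 37.3 and 22 with siMENA. All 6 knockdown libraries held both RNAs, and SNORA10 varied widely between the siMENA libraries. A value of 0 without counts can be a failed estimate, and TPM of such short RNAs is sensitive to the length used, so no fold is given.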
